A study of Homo sapiens with 3 samples.

Results

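The genes described here build cholesterol and fatty acids. They are 28 named genes, namely 17 sterol enzymes, 7 genes of fatty acid synthesis and desaturation, and 4 regulators or sterol carriers, and they were chosen by symbol. A member was measured where the array held a probe set (a group of probes read as 1 value) annotated with its symbol and no other. That gave 25 of the 28 members, read by 58 probe sets, among 17689 genes in all. FDFT1, which makes squalene, had no probe set named here, and CYP51A1 and FADS1 were read only by probe sets annotated with a further gene. The series holds 3 arrays, 1 for each line: the erlotinib-resistant clones ER1 and ER2, and the parental HCC827, a human lung adenocarcinoma cell line whose growth depends on a mutated EGFR. Erlotinib blocks the kinase of EGFR, and the series' design text describes both clones as clonal populations that arose from HCC827 under the drug. All lines grew as prescribed for HCC827, in medium with erlotinib or with the solvent DMSO, and the labels do not say which of them each culture held.

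Since each line had 1 array, variation among cultures could not be estimated, and neither a test nor a p-value is given. Each value below is a log2 difference between single arrays, and a gene was counted as higher or lower at 2-fold or more, a log2 difference of 1. The error that can be given is the disagreement between probe sets of the same gene. Pooled over the 8998 genes with several probe sets, this SD was 0.377 in the difference of ER1 from the parental line and 0.437 in that of ER2. For ER2 against ER1 it was 0.262. The deposited values were centred for each probe set, so the abundance of an RNA cannot be read from them. In a check for mixed-up samples, 2 of the 3 arrays did not match the parental array as cells of the same origin would. The differences below may thus hold differences between lines as well as any that came with resistance, and these cannot be told apart. Over 7 epithelial markers the median difference was −0.40 for ER1 and −0.35 for ER2. At 2-fold, 0 of the 7 were lower in ER1, against 1.84% of all genes, and 1 in ER2, against 1.76%. The latter was CDH1 (−1.28), whose 2 probe sets read −1.99 and −0.58 in ER2. Fibroblast markers had 2 of 8 genes higher at 2-fold in each clone (LUM and FAP), where 4.29% of all genes were higher in ER1 and 4.54% in ER2. The fibroblast medians were −0.02 in ER1 and 0.11 in ER2, with 3 of 8 genes above 0 in ER1 and 5 in ER2. COL1A1 was at 0.50 in ER1 and 0.58 in ER2, while COL1A2, COL3A1 and PDGFRB were below 0 in both clones. Of the blood and endothelial markers, 0 of 6 were higher at 2-fold. What part such cells had in the results was not tested.

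Cells make cholesterol from acetyl-CoA by way of mevalonate, farnesyl diphosphate, squalene and lanosterol, and they make fatty acids from the same acetyl-CoA. Both arms are switched on by the SREBP transcription factors, SREBP-2 (gene SREBF2) mainly for sterols and SREBP-1 (gene SREBF1) mainly for fatty acids. When membranes hold enough sterol, INSIG proteins keep the SREBPs in the endoplasmic reticulum, and when sterol runs short the SREBPs are released, cut and sent to the nucleus. Growth factor signalling through PI3K and AKT, which EGFR can drive, is known to raise SREBP activity.

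In both clones the synthesis genes leaned upward and none was 2-fold lower. In ER1, 4 of 25 measured members were higher at 2-fold, against 4.29% of all genes, and 0 were lower, against 1.84%. In ER2, 3 of 25 were higher, against 4.54% of all genes, and 0 were lower, against 1.76%. INSIG1, STARD4 and IDI1 were higher in both clones (3 members, where 3.88% of all genes were higher in both), and HMGCS1 was higher in ER1. At 1.5-fold, 9 members were higher in ER1, against 7.94% of genes, and 9 in ER2, against 8.6%. At that limit 0 were lower in either clone, against 5.96% of genes in ER1 and 6.31% in ER2. Of any size, 20 of 25 members were above 0 in ER1 (40.3% of all genes) and 20 in ER2 (43.3% of all genes), 19 of them in both. The median member difference was 0.31 in ER1 and 0.31 in ER2, beside medians of −0.06 in ER1 and −0.05 in ER2 over all genes. Both comparisons use the same parental array, so their likeness is no separate evidence.

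**Figure D1:**
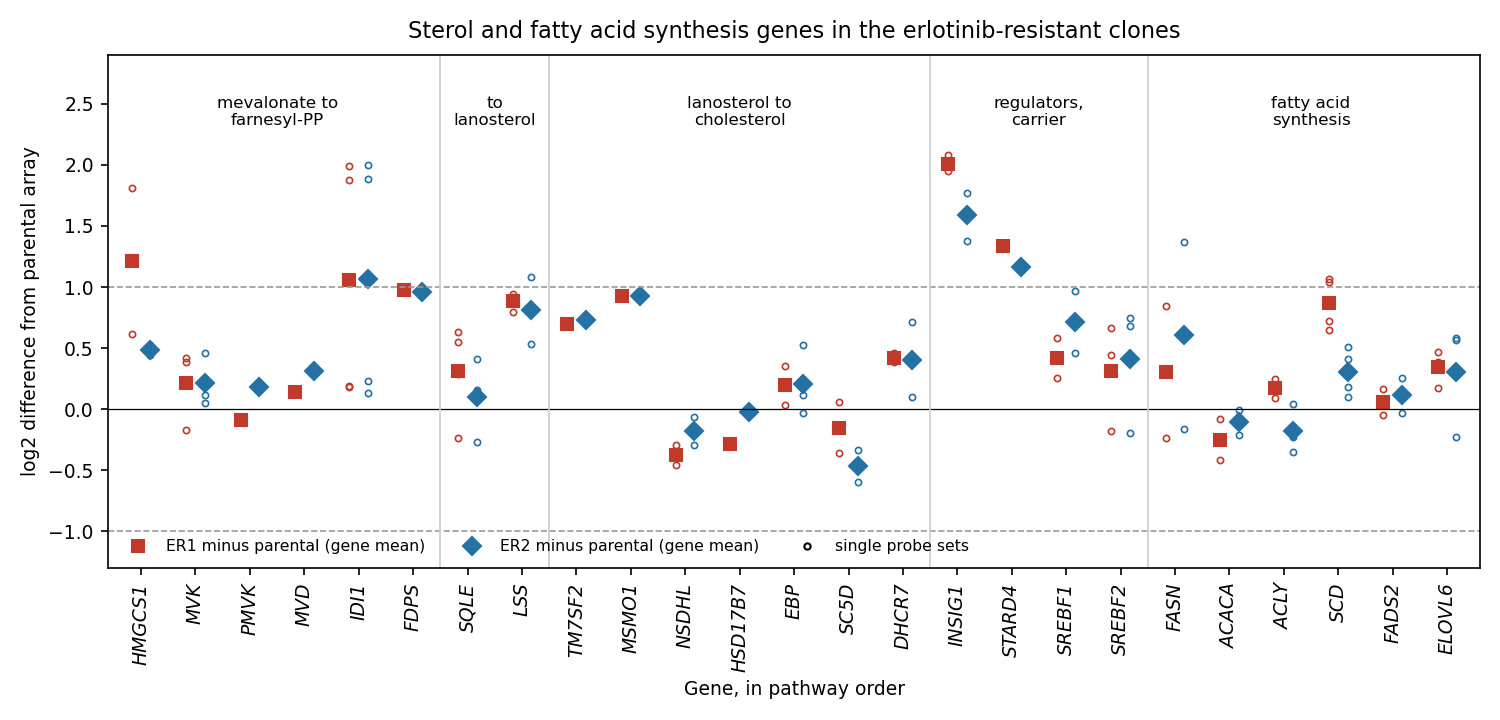
Log2 difference from the parental array for the 25 measured members in pathway order, with ER1 as squares and ER2 as diamonds (mean over a gene's probe sets) and open circles for its single probe sets. Dashed lines mark 2-fold. By its mean, INSIG1 stood highest in both clones (2.01 in ER1 and 1.59 in ER2), and the probe sets of IDI1, HMGCS1 (in ER1) and FASN lay far apart.

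By the mean over probe sets, the member farthest above the parental line was INSIG1, the endoplasmic reticulum protein that holds back SREBPs when sterol is plentiful and is itself an SREBP target. Its mean centred log2 value was 0.88 on the ER1 array and 0.47 on the ER2 array, against −1.12 on the parental array. The differences were 2.01 in ER1, or 4.02-fold, and 1.59 in ER2, or 3.02-fold. Its 3 probe sets gave similar values, at 1.95, 1.99 and 2.08 for ER1 and at 1.38, 1.63 and 1.77 for ER2. Of all 17689 genes, 1.60% stood higher than INSIG1 in ER1 and 2.33% in ER2. In the authors' deposited table INSIG1 is listed as higher, with 3 entries for ER1 at log2 changes of 1.71, 1.84 and 1.88 and with 1 entry for ER2 at 1.64.

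STARD4, a soluble carrier that moves sterol between membranes and an SREBP-2 target, followed. Its single probe set had a centred log2 value of 0.22 on the ER1 array and 0.05 on the ER2 array, against −1.11 on the parental array. It was thus higher by 1.34 in ER1 (2.53-fold) and by 1.16 in ER2 (2.24-fold). The transcription factors themselves differed less. SREBF1 was at 0.42 in ER1 and 0.72 in ER2, with both of its probe sets above 0 in each clone. SREBF2 was at 0.31 in ER1 and 0.41 in ER2, but its 3 probe sets disagreed in sign, the lowest being below 0 in both clones.

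The 6 listed enzymes on the way to farnesyl diphosphate were all measured. HMGCS1, the synthase that opens the mevalonate branch, had mean centred log2 values of 0.37 in ER1 and −0.36 in ER2, against −0.85 in the parental line. Its mean was higher by 1.21 in ER1 and by 0.49 in ER2, but the probe sets disagreed in ER1. One read 1.81 in ER1 and 0.44 in ER2, and the other read 0.62 in ER1 and 0.53 in ER2. The ER1 call therefore rested on a single probe set. The authors' deposited table lists HMGCS1 as higher in ER2, at a log2 change of 1.63, and does not list it for ER1, whereas the deposited array values gave the larger difference in ER1.

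IDI1, which converts isopentenyl diphosphate to its reactive isomer, had mean centred log2 values of 0.88 in ER1 and 0.88 in ER2, against −0.18 in the parental line. The mean difference was 1.06 in each clone, lying between discordant pairs of probe sets. One pair read 1.88 and 1.99 in ER1 and 1.89 and 2.00 in ER2, while the other pair read 0.18 and 0.19 in ER1 and 0.13 and 0.23 in ER2. The mean is thus a value that no probe set gave. The authors' deposited table has 2 IDI1 entries for each clone, at log2 changes of 1.90 and 1.96 for ER1 and of 1.82 and 1.84 for ER2, close to the higher pair and above its entries for INSIG1. By its highest probe set, IDI1 stood above INSIG1 in ER2, at 2.00 against 1.77.

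FDPS, which joins the isoprene units into farnesyl diphosphate, stood just under 2-fold in both clones, at 0.98 in ER1 and 0.96 in ER2. The other steps of this stretch differed by less than 1.5-fold. The decarboxylase MVD was at 0.14 in ER1 and 0.31 in ER2, the mevalonate kinase MVK at 0.22 in ER1 and 0.22 in ER2, and the phosphomevalonate kinase PMVK at −0.09 in ER1 and 0.18 in ER2.

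**Figure D2:**
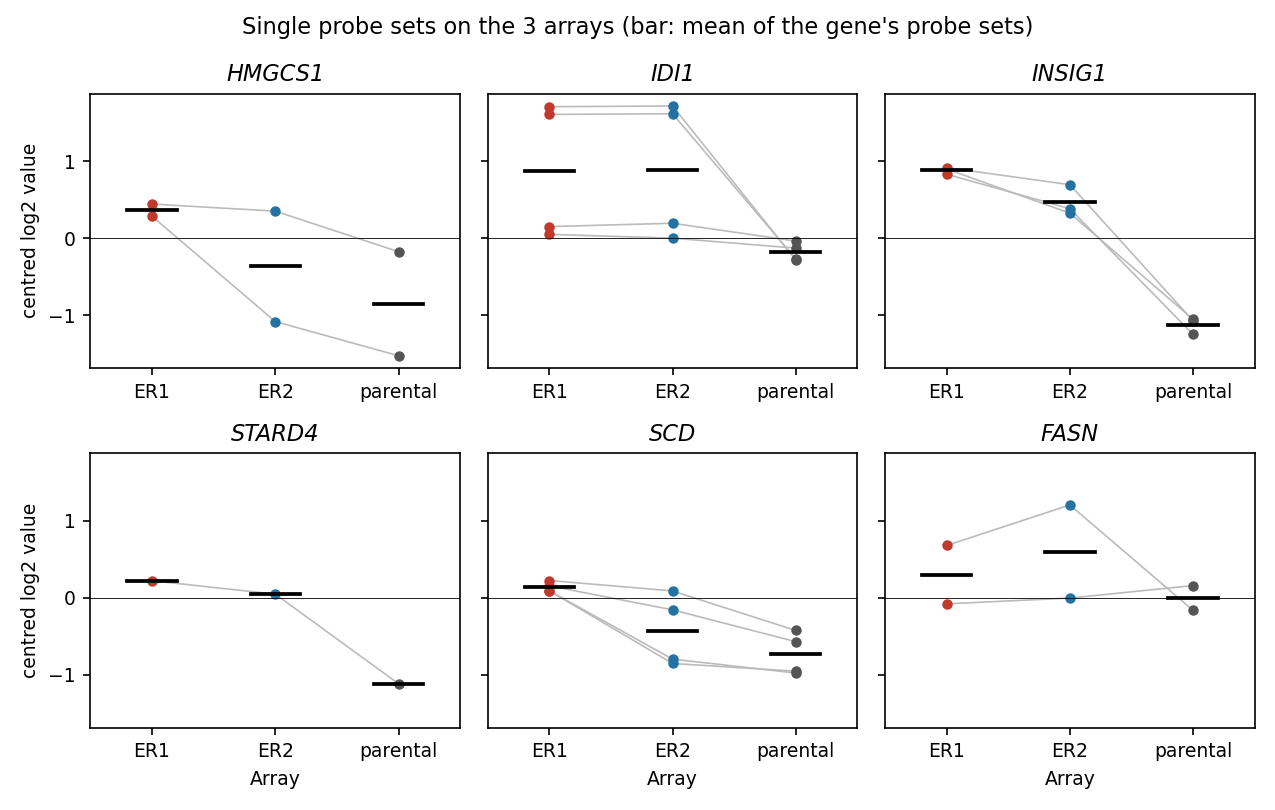
Centred log2 value of each probe set on the ER1, ER2 and parental arrays, joined by grey lines, for the 4 members at 2-fold in either clone and for SCD and FASN, with a bar at the mean. All INSIG1 probe sets were low on the parental array, at a mean of −1.12, whereas only 1 pair of IDI1 probe sets set the clones apart from the parental line by more than 2-fold.

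Beyond farnesyl diphosphate, the pattern split by enzyme. LSS, which closes the ring of lanosterol, was at 0.89 in ER1 and 0.81 in ER2, with its 3 probe sets between 0.80 and 0.95 in ER1 and between 0.54 and 1.08 in ER2. MSMO1, which oxidises methyl groups of the sterol nucleus, was at 0.92 in ER1 and 0.93 in ER2, and the sterol reductase TM7SF2 was at 0.70 in ER1 and 0.73 in ER2, each on 1 probe set. DHCR7, a reductase of the last steps, was at 0.42 in ER1 and 0.41 in ER2. SQLE, the squalene epoxidase often held to be rate-limiting, was at 0.31 in ER1 and 0.10 in ER2, but its 4 probe sets disagreed in sign. The lowest read −0.23 in ER1 and −0.27 in ER2, and the others spanned 0.28 to 0.63 in ER1 and 0.11 to 0.41 in ER2. The isomerase EBP was at 0.20 in ER1 and 0.21 in ER2.

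A few late enzymes were on the other side of 0. NSDHL, the dehydrogenase that works on the same methyl groups as MSMO1, was at −0.38 in ER1 and −0.18 in ER2, and both of its probe sets were below 0 in each clone. HSD17B7, the ketoreductase of that step, was at −0.28 in ER1 and −0.02 in ER2. The desaturase SC5D was at −0.15 in ER1 and −0.47 in ER2. Its probe sets disagreed in sign in ER1, at −0.36 and 0.06, and were both below 0 in ER2. Of 7 measured enzymes between lanosterol and cholesterol, 4 were above 0 and 3 below in each clone, where 40.3% of all genes were above 0 in ER1 and 43.3% in ER2. CYP51A1, the lanosterol demethylase, was read by 2 probe sets that are also annotated with LRRD1. Their ER1 values were 0.91 and 0.97, while for ER2 they were 0.89 and 0.08.

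Of the 6 fatty acid genes with a probe set of their own, SCD was highest in ER1 and FASN in ER2. SCD, the desaturase that makes oleate, had mean centred log2 values of 0.14 in ER1 and −0.43 in ER2, against −0.73 in the parental line. Its difference was 0.87 in ER1 and 0.30 in ER2. All 4 probe sets were above 0. They spanned 0.65 to 1.07 for ER1 and 0.10 to 0.51 for ER2. Taken singly, they read −0.94, −0.89, −0.31 and −0.14 for ER2 minus ER1, with 1 array per clone. FASN, the fatty acid synthase, was at 0.30 in ER1 and 0.60 in ER2, but its probe sets pointed in opposite directions. One read 0.84 in ER1 and 1.37 in ER2, and the other read −0.24 in ER1 and −0.16 in ER2.

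The elongase ELOVL6 was at 0.34 in ER1 and 0.31 in ER2, but its 3 probe sets disagreed in sign in ER2, at 0.57, 0.58 and −0.22. The desaturase FADS2 was at 0.06 in ER1 and 0.11 in ER2. ACLY, which supplies cytosolic acetyl-CoA to both arms, was at 0.17 in ER1 and −0.18 in ER2. ACACA, which makes malonyl-CoA, was at −0.25 in ER1 and −0.11 in ER2. These enzymes, which feed carbon into fatty acids, were within 1.5-fold of the parental line. FADS1, the partner desaturase of FADS2, was read by 3 probe sets that are also annotated with MIR1908, a microRNA gene that lies inside FADS1 in the RefSeq table. For ER1 these were 1.06, 1.17 and 1.47, with a mean of 1.23 that no other fatty acid member reached. For ER2 they were 0.95, 0.98 and 1.06.

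Set side by side, the arms had similar medians. The median over 15 sterol enzymes was 0.31 in ER1, against 0.24 over 6 fatty acid genes, and 0.31 in ER2, against 0.21. The gap between the medians was 0.07 in ER1 and 0.10 in ER2, and it was not tested. At 2-fold, 2 of 15 sterol enzymes were higher in ER1 (HMGCS1 and IDI1) and 1 in ER2 (IDI1), against 0 of 6 fatty acid genes in either clone, where 4.29% and 4.54% of all genes were higher. At 1.5-fold the counts were 6 and 5 of 15 sterol enzymes, against 1 and 1 of 6 fatty acid genes (SCD in ER1 and FASN in ER2), where 7.94% of all genes were higher in ER1 and 8.6% in ER2. With the probe sets shared with a further gene, FADS1 joined the members higher at 2-fold in ER1, at 1.23, and stood at 1.00, just short of 2-fold, in ER2. The top of the fatty acid arm was then level with that of the sterol enzymes, at 1.21 for HMGCS1 in ER1 and 1.06 for IDI1 in ER2. The 4 regulators and carriers were all above 0, with medians of 0.88 in ER1 and 0.94 in ER2.

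**Figure D3:**
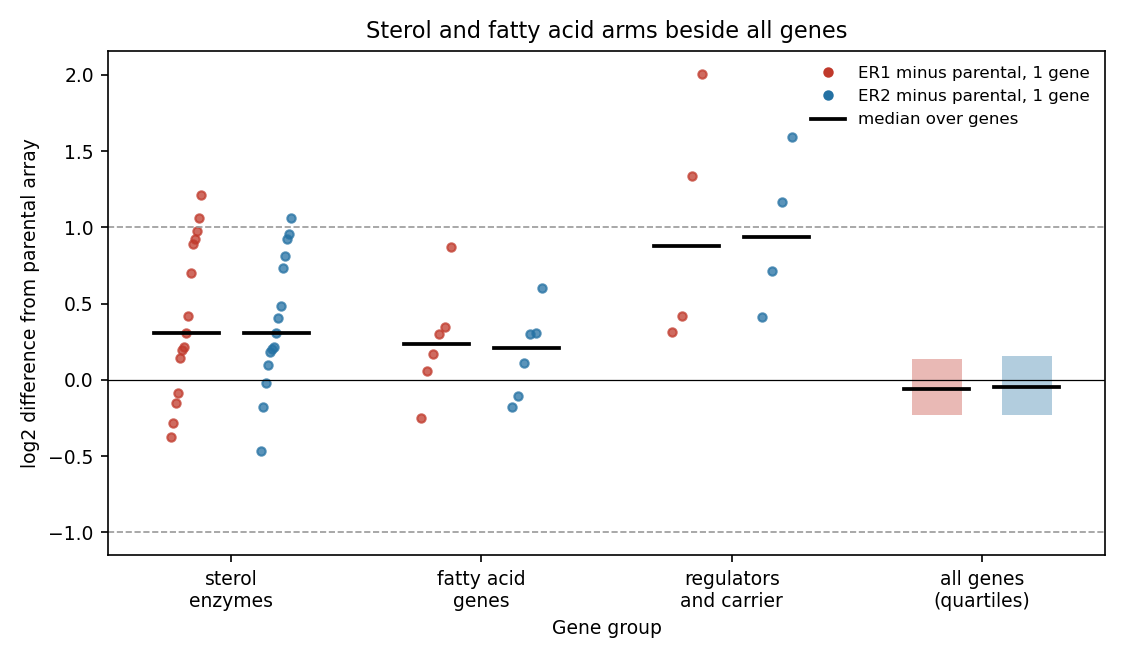
Log2 difference from the parental array for each measured gene, ER1 beside ER2, in the sterol arm, the fatty acid arm and the regulators, with medians as black bars. Shaded boxes give the quartiles of all 17689 genes. The medians of the arms (0.31 and 0.24 in ER1, 0.31 and 0.21 in ER2) lie close together, and only sterol enzymes and regulators pass 2-fold; FADS1, read by shared probe sets, is not drawn.

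The values on the parental array itself enter every difference from it, so a low value there raises the difference by construction, and what follows describes that array and is no separate evidence. On that array the centred log2 values of all genes were narrow, with quartiles of −0.06 and 0.11. At or below −0.5, a limit chosen after the values were seen, stood 6 of 25 members, against 1.44% of all genes. They were INSIG1 (−1.12), STARD4 (−1.11), HMGCS1 (−0.85), SCD (−0.73), TM7SF2 (−0.66) and MSMO1 (−0.54). INSIG1 and STARD4 ranked 22 and 23 from the lowest of 17689 genes. For IDI1, FDPS and LSS the parental value was nearer 0, between −0.18 and −0.15, and the clones stood above it at 0.66 to 0.88. The centring constant and the arrays behind it are not known, so these values place the parental array against an unknown centre and do not measure abundance.

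Promoter sequence gives context for genes that were higher together. SREBPs are known to bind sterol regulatory elements, usually beside sites for the partner factors NF-Y and Sp1. RefSeq promoter windows (build GRCh38.p14, from 250 bases before to 50 after a start site) were found for 25 of the 28 members, and 13873 of the 17689 array genes had one. These 25 are not the 25 measured members: they include CYP51A1 and FADS1, whereas FDFT1, SQLE and FASN had no window and were not searched. The NF-Y box CCAAT, on either strand, was in a window of 20 of 25 members, against 5821 of the 13873 array genes, and 14 of 25 had 2 or more in the same window, against 14.8%. By arm it was in 13 of 15 sterol enzymes, 4 of 6 fatty acid genes and 3 of 4 regulators or carriers. The Sp1 box GGGCGG was in 24 of 25 members, against 67.8%. The exact sterol element core TCACNCCAC was in 1 member, SREBF2, against 1.46% of array genes; looser forms were not searched. MVK and NSDHL had the most CCAAT boxes, 5 each, with differences of 0.22 in both clones for MVK and below 0 in both for NSDHL.

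The stretches shown are the 250 bases before the start site of the members highest in both clones, of HMGCS1 and MSMO1, and of SREBF2, which alone held the element core. They run from 5′ to 3′ on the gene's strand, with CCAAT or its reverse complement ATTGG in capitals, and also the element core in SREBF2. Where a gene had several windows, the one with most CCAAT boxes is printed. In IDI1 a CCAAT and an ATTGG overlap.
INSIG1, chr7:155297628-155297877, plus strand: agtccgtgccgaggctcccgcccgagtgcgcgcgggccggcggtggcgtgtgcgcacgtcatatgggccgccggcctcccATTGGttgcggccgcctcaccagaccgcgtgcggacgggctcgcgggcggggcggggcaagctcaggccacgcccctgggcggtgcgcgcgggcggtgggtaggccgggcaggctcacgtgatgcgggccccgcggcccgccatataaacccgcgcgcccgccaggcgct
STARD4, chr5:111512536-111512785, minus strand: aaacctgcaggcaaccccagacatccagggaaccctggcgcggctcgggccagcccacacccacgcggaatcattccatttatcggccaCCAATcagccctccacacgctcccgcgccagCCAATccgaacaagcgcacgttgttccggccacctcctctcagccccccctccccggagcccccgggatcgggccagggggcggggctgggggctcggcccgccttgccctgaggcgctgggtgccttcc
IDI1, chr10:1048887-1049136, minus strand: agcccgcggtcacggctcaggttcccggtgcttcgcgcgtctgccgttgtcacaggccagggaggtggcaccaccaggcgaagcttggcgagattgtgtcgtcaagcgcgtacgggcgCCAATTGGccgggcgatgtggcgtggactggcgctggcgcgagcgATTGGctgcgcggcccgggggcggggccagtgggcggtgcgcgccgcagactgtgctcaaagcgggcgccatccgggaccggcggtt
HMGCS1, chr5:43313413-43313662, minus strand: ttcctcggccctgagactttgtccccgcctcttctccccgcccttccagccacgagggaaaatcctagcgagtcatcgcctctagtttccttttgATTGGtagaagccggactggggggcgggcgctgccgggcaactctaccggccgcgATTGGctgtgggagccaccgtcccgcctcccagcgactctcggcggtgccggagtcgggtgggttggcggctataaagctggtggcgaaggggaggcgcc
MSMO1, chr4:165327419-165327668, plus strand: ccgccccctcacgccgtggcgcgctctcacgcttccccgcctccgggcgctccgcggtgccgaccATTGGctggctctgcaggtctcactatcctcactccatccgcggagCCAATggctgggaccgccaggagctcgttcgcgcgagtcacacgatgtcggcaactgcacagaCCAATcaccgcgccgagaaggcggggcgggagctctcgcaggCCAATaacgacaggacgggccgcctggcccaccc
SREBF2, chr22:41832855-41833104, plus strand: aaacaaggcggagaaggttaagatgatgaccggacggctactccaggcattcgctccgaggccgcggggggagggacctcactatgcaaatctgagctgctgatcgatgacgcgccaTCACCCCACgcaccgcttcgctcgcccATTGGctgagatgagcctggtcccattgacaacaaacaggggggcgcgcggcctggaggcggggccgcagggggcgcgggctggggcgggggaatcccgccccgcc

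INSIG1 has 1 box, STARD4 and HMGCS1 have 2 each, IDI1 has 3 and MSMO1 has 4. The single box of SREBF2 lies downstream of its element core. A match of letters is a description and does not show that a factor was bound in these cells.

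Few genes of any kind differed between the clones by 1.5-fold or more, and 1 member, HMGCS1, was among them. For ER2 minus ER1, 0 of 25 members were 2-fold higher, against 0% of all genes, and 0 were 2-fold lower, against 0.0396%. At 1.5-fold, 0 members were higher in ER2 than in ER1, against 0.294% of genes, and 1 was lower, against 0.69%. Of any size, 14 of 25 were above 0, against 55.1%. The SD over genes was 0.267 for the members and 0.200 for all genes. The member lowest in ER2 was HMGCS1 at −0.73, then SCD at −0.57 and INSIG1 at −0.41. The highest were FASN and SREBF1, each at 0.30, and PMVK at 0.27. The sterol and fatty acid medians were 0.00 and 0.01. The HMGCS1 and SCD differences came mostly from some of their probe sets: those of HMGCS1 read −1.37 and −0.09 for ER2 minus ER1, and those of SCD read −0.94, −0.89, −0.31 and −0.14. Control transcripts are read at both ends, and their 5′ minus 3′ value differed between ER2 and ER1 by −0.37 (ACTB) and −0.20 (GAPDH). The same value differed between ER2 and the parental line by −0.31 (ACTB) and −0.22 (GAPDH), and between ER1 and the parental line by 0.06 and −0.02. The part of this in the ER2 values, those of HMGCS1 and SCD included, was not tested.

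Genes around the pathway were compared from lists of known function. Among 9 other SREBP targets, 1 was higher at 2-fold in each clone, where 4.29% of all genes were higher in ER1 and 4.54% in ER2. It was PNPLA3, a lipid droplet protein, at 1.19 in ER1 and 1.33 in ER2. ACSS2, which makes acetyl-CoA from acetate, was next at 0.90 in ER1 and 0.93 in ER2, and its parental value was also low, at −0.76. At 1.5-fold, 3 of 9 were higher in ER1, against 7.94% of all genes, and 4 in ER2, against 8.6%. At that limit 0 were lower in either clone, against 5.96% of genes in ER1 and 6.31% in ER2. The list's medians were 0.26 in ER1 and 0.05 in ER2, with 6 genes above 0 and 3 below in each clone. The sterol-responsive membrane protein TMEM97 was among those below, at −0.37 in ER1 and −0.48 in ER2. The proteins that process SREBPs had 0 of 8 genes at 2-fold. INSIG2, the partner of INSIG1 that is not induced by SREBPs, was at −0.48 in ER1 and −0.61 in ER2, on the other side of 0 from INSIG1, and RNF139, a ligase of the endoplasmic reticulum, was at 0.49 in ER1 and 0.46 in ER2.

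In the wider fatty acid list, 4 of 19 genes were higher at 2-fold in each clone (backgrounds 4.29% and 4.54%) and 0 lower, although the medians were 0.13 in ER1 and 0.08 in ER2. The stearoyl-CoA desaturase SCD5 was highest, at 2.36 in ER1 and 2.20 in ER2, but its 2 probe sets read 4.14 and 0.58 in ER1 and 3.88 and 0.51 in ER2. The elongases ELOVL3 (1.56 in ER1 and 2.10 in ER2) and ELOVL4 (1.47 in ER1 and 1.39 in ER2), which serve very long fatty acids, had 1 probe set each. DGAT2, which completes triglyceride synthesis, was at 1.18 in ER1 and 1.15 in ER2. The 4 higher genes were thus a desaturase, a pair of elongases and an esterifying enzyme.

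Of the lists compared here, sterol export held the largest value. ABCG1, which exports cholesterol and is a target of the oxysterol receptor LXR, was at 3.81 in ER1 and 3.91 in ER2, with all 4 probe sets at 2.99 or more. It was the only 1 of 8 genes of the list at 2-fold, where 4.29% of all genes were higher in ER1 and 4.54% in ER2. ABCA1, a further exporter that LXR induces, was at −0.34 in ER1 and −0.29 in ER2, with its 4 probe sets on both sides of 0. Uptake, trafficking and storage genes had 0 of 12 at 2-fold, with the lysosomal cholesterol transporter NPC1 at 0.65 in ER1 and 0.71 in ER2 and the lipoprotein receptor VLDLR at −0.52 in ER1 and −0.66 in ER2.

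The non-sterol branches of the mevalonate pathway, such as prenylation, had 0 of 11 genes at 2-fold. Over all genes, 4.29% were higher at 2-fold in ER1 and 4.54% in ER2, while 1.84% were lower in ER1 and 1.76% in ER2. The medians of these branches were −0.05 in ER1 and −0.18 in ER2. The protease ZMPSTE24 was lowest, at −0.42 in ER1 and −0.51 in ER2. Fatty acid oxidation genes had medians of −0.16 in ER1 and −0.25 in ER2, with 0 of 14 at 2-fold in ER1 and 1 in ER2, the peroxisomal enzyme EHHADH (0.58 in ER1 and 1.19 in ER2). Partner transcription factors had 0 of 11 at 2-fold. PPARG was at 0.53 in ER1 and 0.51 in ER2, and the NF-Y subunit NFYC was at −0.46 in ER1 and −0.69 in ER2.

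**Figure D4:**
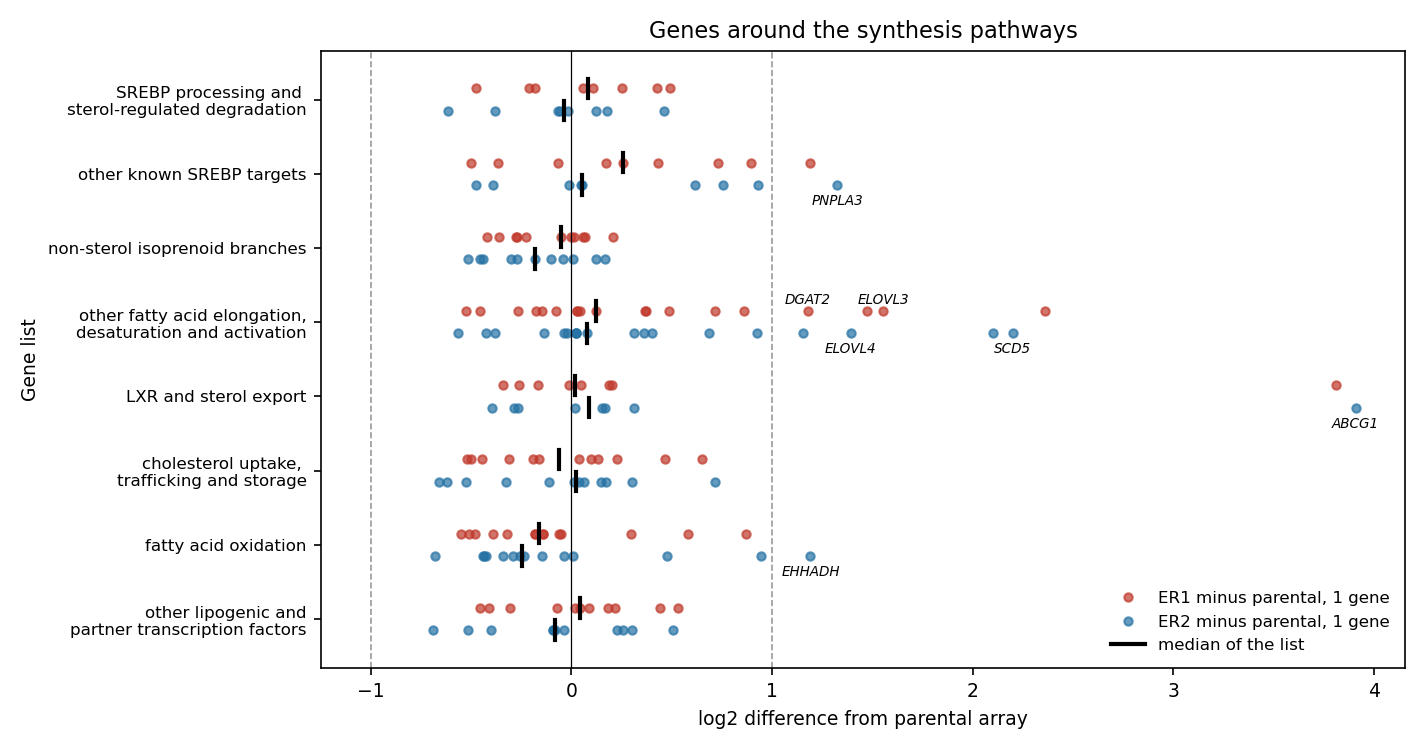
Log2 difference from the parental array for each measured gene of 8 lists around the synthesis pathways, ER1 above ER2, with list medians as black bars, dashed lines at 2-fold and the genes at 2-fold in either clone named. ABCG1 (3.81 in ER1 and 3.91 in ER2) and the desaturase SCD5 (2.36 in ER1 and 2.20 in ER2) lay farthest from 0 while list medians lay between −0.25 and 0.26.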

How the data were processed

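Log2 values of 43946 probe sets on 3 arrays were deposited. The submitters' processing notes name RMA, without a version. It corrects background, brings arrays to a common distribution and summarises probes. The values had further been centred per probe set, which leaves differences between arrays intact and hides levels. Per the labels' protocols, column-purified total RNA was depleted of ribosomal RNA and labelled with biotin by a whole-transcript method, whereas the probe-set names belong to a 3′ expression array. The authors also deposited tables of log2 fold changes and a signed fold score per gene and clone, per the file headers, with no baseline named there.

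Probe sets were named by the platform annotation: 34856 had 1 gene and 1589 several. Probe sets with 1 gene were averaged per gene (Python 3.11.15, pandas 2.3.3), giving 17689 genes. Differences between single arrays were counted at 2-fold. There were no replicates, so the number of arrays limits the precision and no test was possible. All members are reported. Of the other lists, genes at 2-fold in either clone are named and otherwise up to 2 with the largest mean difference; ACSS2, TMEM97 and ABCA1 beyond that rule were chosen after their values were seen. The members and lists were chosen with earlier results of these data known. The calculation was tested on simulated arrays. Promoter windows came from RefSeq. Alternatives covered the summary of probe sets, their selection, scaling, the fold threshold and the make-up of the arms.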

Additional observations from a re-analysis of the deposited data

Results flagged for a closer look

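2 members had opposite signs in the clones, and the difference was not tested. PMVK was at −0.089 in ER1 and 0.18 in ER2, and ACLY at 0.17 in ER1 and −0.18 in ER2.

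2 members gave a signal only in probe sets that were left out of the gene means because a further gene is annotated to them. FADS1 averaged 1.23 in ER1 and 1.00 in ER2 over 3 such probe sets. CYP51A1 averaged 0.94 in ER1 and 0.48 in ER2 over 2.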

How the results depend on the processing

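INSIG1, STARD4, IDI1 and HMGCS1 kept their direction under the alternatives run, but several counts moved. With only probe sets not marked as shared between transcripts (17 members measured), 2 members were higher in ER1, INSIG1 and STARD4, and IDI1 dropped to 0.18 in ER1 and 0.13 in ER2. With the probe set of largest range per gene, 5 were higher in ER2, where LSS and FASN joined, 1 was lower in ER2 than in ER1 (HMGCS1, at −1.37), and IDI1 read 1.99 and 2.00. At 1.5-fold, 9 members were higher in ER1 and 9 in ER2, and 1 was lower in ER2 than in ER1. At 3-fold, 1 was higher in ER1 and 1 in ER2, INSIG1 in each. These follow from which probe sets or threshold enter. INSIG1 stayed between 1.97 and 2.08 for ER1 and between 1.46 and 1.77 for ER2. The sterol median exceeded the fatty acid median by 0.03 to 0.16 in ER1 and by 0.06 to 0.24 in ER2. The fatty acid median in ER2 ranged from −0.03 to 0.30. It was below 0 only without shared probe sets, where SCD, FASN and ACLY dropped out and the median was the value of FADS2. The arm medians of that setting are thus over fewer genes. No paired analysis was possible because each line has 1 array, which also left no replicate to leave out. Signal over background cannot be read from centred values, so dim probe sets could not be set aside.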
